A study of Mus musculus with 12 samples.

Results

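The 10 genes described here encode the opioid and cannabinoid receptors, the opioid peptide precursors and the main enzymes of endocannabinoid breakdown: Oprm1, Oprd1, Oprk1, Oprl1, Penk, Pdyn, Cnr1, Cnr2, Faah and Mgll. They were found by symbol among the 38594 Ensembl genes of the deposited table, and all 10 were measured and passed the filter on low values that left 25809 genes for testing. The study profiled polyadenylated RNA of dorsal root ganglia, where the cell bodies of sensory neurons lie, taken at lumbar levels L1 to L6, from male mice of the strain C57BL/6J that were 6 to 12 weeks old. Tissue was taken at zeitgeber time (ZT, hours after lights on) 2, 8, 14 or 20, with 3 libraries at each time, from mice that the labels call naive and for which they name no treatment or allele. Neurons, glia, vessels and attached tissue of all these ganglia were extracted together, so fewer cells of a type and less RNA per cell cannot be told apart.

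Opioid receptors and cannabinoid receptors couple to inhibitory G proteins of the Gi/o class. Depending on the cell, these close presynaptic calcium channels, open inwardly rectifying potassium channels and lower cyclic AMP. In sensory neurons, activation of these receptors dampens transmitter release and pain signalling. Opioid peptides are cut from precursor proteins: enkephalins from the Penk product and dynorphins from the Pdyn product. Endocannabinoids are lipids made on demand. FAAH breaks down anandamide, and the monoacylglycerol lipase encoded by Mgll breaks down 2-arachidonoylglycerol.

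The table holds estimated counts that appear to be on a coverage scale, since genes of very different length share the most frequent value of a library. The step that made them is not stated, and they are treated here as per length where levels of genes are compared. Values are given as CPM, counts scaled to a library total of 1000000 with library sizes adjusted by the trimmed mean of M-values (TMM). The library totals lay between 89.6 and 124.7 in units of 1000000 estimated counts, which is roughly 47.9 to 67.1 in the same unit of reads, as approximated from transcript lengths. Arntl, the clock activator BMAL1, served as a check of the times and averaged 2.63 CPM at ZT14 against 6.24 CPM at ZT2 (edgeR adjusted p = 0.00186). The summed level of 10 pan-neuronal markers was 19900 to 21100 CPM in every library and none of the 10 was at 0 throughout. Whether the libraries came from different animals is not stated in the labels. The p-values of the time tests set differences between times against the spread among libraries of a time. That spread may not be the spread between animals, and part of it may be technical. Library numbers follow the order of the times, so batch and time of day cannot be told apart. ZT8 replicate 3, ZT14 replicate 1 and ZT20 replicate 1 stood apart from the rest. The most frequent value above 10 in a library, its modal value, appears to reflect a coverage of 1. It was 16.4 to 16.5 in these 3 and 16.9 to 17.2 in the other 9. In these 3 the summed markers were also high for skeletal muscle (316 to 805 CPM, against 23.7 to 319 CPM in the other 9), for adipocytes (9.12 to 18.6 against 3.26 to 8.24 CPM) and for fibroblasts (734 to 819 against 468 to 717 CPM). The sum of myelinating Schwann cells leaned higher too (7210 to 8500 against 6000 to 7450 CPM). So did those of satellite glia, macrophages, endothelium and spinal cord, each with overlap. Markers of non-peptidergic nociceptors and itch neurons leaned lower (542 to 612 against 599 to 711 CPM).

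The clock's activators bind the E-box CACGTG, a palindrome that reads alike on both strands. RefSeq promoter windows of 300 bases (GRCm38.p6, 250 bases before to 50 bases after a transcript start) were at hand for 8 of the 10 genes, all but Penk and Oprk1. Of the 17 windows of these genes, 3 held the motif, against 7.15% of all 32851 windows in the table. The 3 windows are shown because they are the places where these letters occur in the promoters of the set, at the Oprd1 start (chr4:132144437-132144736, minus strand), at 1 of 3 Cnr1 starts (chr4:33924394-33924693, plus strand) and at 1 of 2 Mgll starts (chr6:88724162-88724461, plus strand), each written along its gene's strand with the E-box in capitals.
Oprd1: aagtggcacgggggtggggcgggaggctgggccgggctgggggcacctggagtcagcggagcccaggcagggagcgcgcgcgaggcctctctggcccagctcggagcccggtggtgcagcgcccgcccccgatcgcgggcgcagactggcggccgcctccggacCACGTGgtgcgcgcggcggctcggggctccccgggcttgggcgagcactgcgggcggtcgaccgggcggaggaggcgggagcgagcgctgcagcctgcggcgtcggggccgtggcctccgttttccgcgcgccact
Cnr1: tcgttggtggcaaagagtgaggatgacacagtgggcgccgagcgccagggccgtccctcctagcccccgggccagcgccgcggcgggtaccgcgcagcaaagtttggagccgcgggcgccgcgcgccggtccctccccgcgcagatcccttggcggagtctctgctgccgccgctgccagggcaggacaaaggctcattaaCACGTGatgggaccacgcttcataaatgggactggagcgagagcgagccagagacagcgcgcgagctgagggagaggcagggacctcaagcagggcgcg
Mgll: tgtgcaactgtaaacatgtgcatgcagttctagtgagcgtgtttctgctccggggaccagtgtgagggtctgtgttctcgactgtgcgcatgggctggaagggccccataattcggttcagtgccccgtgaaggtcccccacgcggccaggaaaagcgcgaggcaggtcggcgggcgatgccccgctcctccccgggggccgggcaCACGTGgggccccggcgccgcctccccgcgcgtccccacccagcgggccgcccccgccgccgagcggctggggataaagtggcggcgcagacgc
The motif began 86 bases before the RefSeq start of Oprd1, 49 bases before that of Cnr1 and 44 bases before that of Mgll. In the GENCODE annotation Cnr1 begins earlier, at 33924593, so there the motif lies just inside the gene. The D-box (TTATGTAA or TTACGTAA, either strand), held by 1.06% of all windows, and the cyclic AMP response element (TGACGTCA, a palindrome), held by 1.79%, were found in 0 of the 17. A match is a string of letters and not a shown site of binding, and the levels of the 3 genes over the day are given below with those of the others.

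The mean levels of the 10 genes ran between 0.143 and 80.4 CPM, in the order Mgll, Penk, Oprl1, Faah, Cnr1, Oprm1, Oprd1, Oprk1, Pdyn and Cnr2. Mgll averaged 80.4 ± 1.56 CPM and Penk 35.1 ± 14.0 CPM (SD, n = 12 libraries). Mgll exceeded Penk in 12 of 12 libraries, by 1.23 to 4.16 times. Oprl1 with 19.4 ± 0.87 CPM and Faah with 18.9 ± 1.08 CPM were neighbours that did not separate, Oprl1 being the higher in 8 of 12 libraries. Cnr1 averaged 16.5 ± 1.13 CPM and lay below Faah in 12 of 12 libraries, by a median of 1.15 times. A gap followed: Cnr1 was 5.69 to 11.7 times the level of Oprm1 within a library. Oprm1 (1.98 ± 0.46 CPM), Oprd1 (1.77 ± 0.45 CPM) and Oprk1 (1.31 ± 0.17 CPM) overlapped in range, with Oprm1 above Oprd1 in 8 of 12 libraries and Oprd1 above Oprk1 in 10 of 12. Pdyn (0.252 ± 0.084 CPM) and Cnr2 (0.143 ± 0.058 CPM) were lowest, and their ranges overlapped as well. Their values stood for only about 4 to 11 reads of Pdyn and 12 to 38 reads of Cnr2 in a library, whereas Mgll had about 3228 to 4517. Reads were approximated with the median length of a gene's annotated transcripts, which for Pdyn is 647 bases, while its longest has 2386. With the longer one the reads of Pdyn would be more.

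**Figure D1:**
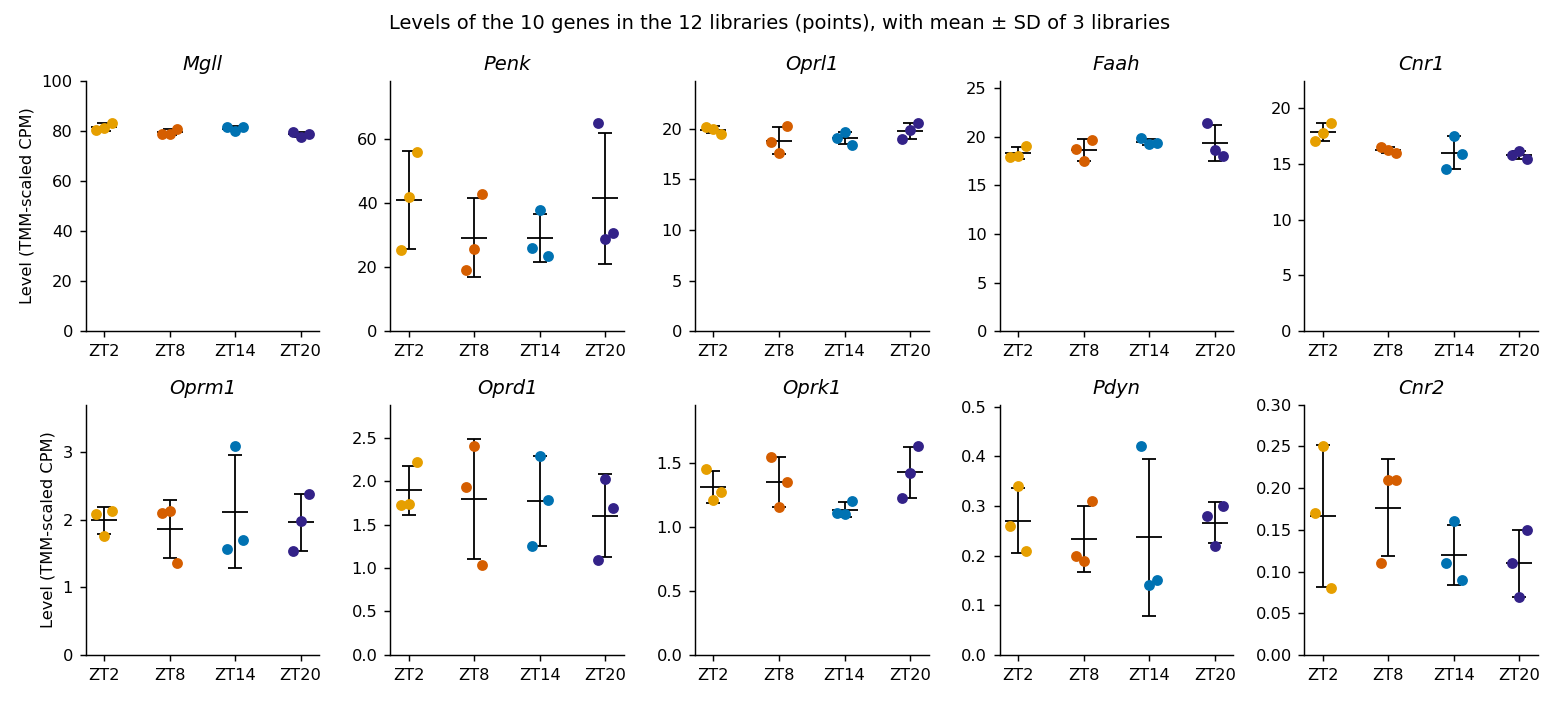
Level of each gene (vertical axis, TMM-scaled CPM, starting at 0) at ZT2, ZT8, ZT14 and ZT20 (horizontal axis). Points are the 3 libraries of a time in the order of their replicate numbers, and the horizontal marks with bars are their mean ± SD. Mgll lay between 77.8 and 83.4 CPM in all 12 libraries, while Penk ranged over 3.42 times within them.

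Among the opioid receptors the message of the nociceptin receptor dominated. Oprl1 (chr2:181715016-181720985, plus strand, GRCm38), whose product binds nociceptin and not the classical opioid peptides, made up 79.4% of the summed CPM of the 4 receptor genes on average, with a range of 75.3% to 84.3% over the libraries. The mu receptor gene Oprm1, target of morphine, held 8.07%, the delta receptor gene Oprd1 7.21% and the kappa receptor gene Oprk1 5.35%. These shares rest on reading the values as per length. Multiplied by transcript length, the order of the receptors became Oprl1, Oprd1, Oprk1 and Oprm1. Oprl1 stood at 20.2, 20.0 and 19.5 CPM at ZT2, at 18.6, 17.6 and 20.2 CPM at ZT8, at 19.1, 19.7 and 18.4 CPM at ZT14, and at 19.0, 19.8 and 20.6 CPM at ZT20. The 4 times overlapped, and the highest library was 1.17 times the lowest.

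Oprm1 (chr10:6758506-7038198, plus strand) was 2.08, 1.76 and 2.12 CPM at ZT2, 2.09, 2.13 and 1.36 CPM at ZT8, 1.57, 3.08 and 1.70 CPM at ZT14, and 1.53, 1.98 and 2.37 CPM at ZT20. Its highest library was ZT14 replicate 2, the other 2 of ZT14 were among its lowest 4, and all times overlapped. Oprd1 (chr4:132110726-132144486, minus strand) was 1.72, 1.74 and 2.22 CPM at ZT2, 1.93, 2.40 and 1.04 CPM at ZT8, 1.25, 2.29 and 1.78 CPM at ZT14, and 1.09, 2.03 and 1.69 CPM at ZT20, and all 4 times overlapped. Oprk1 (chr1:5588466-5606131, plus strand) was 1.45, 1.21 and 1.27 CPM at ZT2, 1.55, 1.16 and 1.35 CPM at ZT8, 1.11, 1.10 and 1.20 CPM at ZT14, and 1.23, 1.42 and 1.63 CPM at ZT20. The ZT14 libraries of Oprk1 lay below those of ZT2 and of ZT20, without overlap. For Oprk1, ZT20 was above ZT14 by 0.33 ± 0.16 on the log2 scale (SE; 95% interval -0.01 to 0.67; unadjusted edgeR p of 0.0553 and adjusted p of 0.796). Libraries of these times did not overlap for 2 of the 10 genes, Oprk1 and Mgll, beside 11.4% of all tested genes.

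The low values of Oprm1 and Oprd1 fell in the same libraries. Oprd1 was 1.04 to 1.25 CPM in the 3 libraries of lowest modal value and 1.69 to 2.40 CPM in the other 9. Oprm1 was 1.36 to 1.57 CPM in those 3 and 1.70 to 3.08 CPM in the other 9. Both genes were below the other 9 in all 3, as were 5.01% of all tested genes, and Faah was above them in all 3 (19.6 to 21.4 against 17.5 to 19.3 CPM), as were 3.16% of all. Across all 12 libraries Oprm1 and Oprd1 had a Pearson r of 0.80 (permutation p = 0.00134, adjusted p = 0.0603 over the 45 pairs of the 10 genes) and a Spearman rho of 0.73 (permutation p = 0.00922, adjusted p = 0.207). Without the 2 libraries farthest from the median of Oprm1 r was 0.73, as deviations from the mean of each time it was 0.82, and within the 9 libraries alone it was 0.46. The relation did not pass the adjustment and was weaker within the 9 libraries. None of the 45 pairs passed it by either measure, and 4 pairs had an unadjusted permutation p of r under 0.05. Oprd1 and Pdyn were the pair with the largest negative value (r = -0.70, permutation p = 0.0111, adjusted p = 0.251; rho = -0.78, permutation p = 0.00441, adjusted p = 0.198; r = -0.78 without the 2 farthest libraries and -0.60 within the 9). The part that attached tissue, the mix of cell types or coverage had in the low values was not tested.

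**Figure D2:**
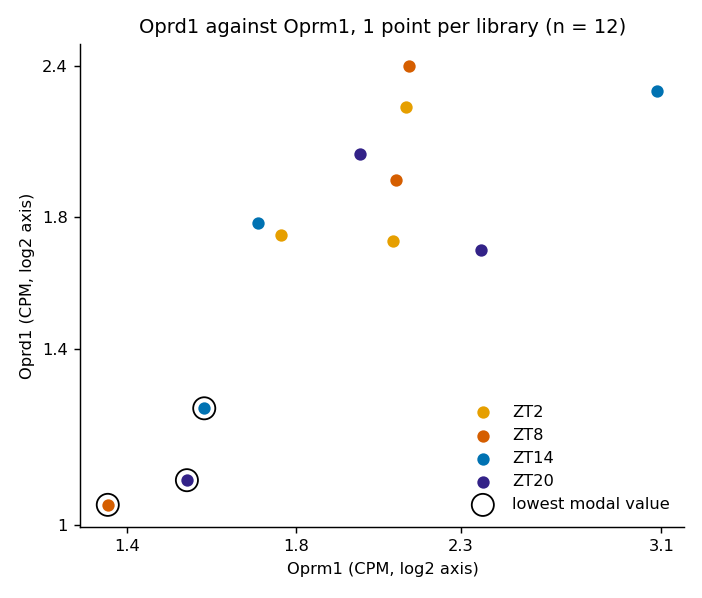
Level of Oprd1 (vertical axis) against Oprm1 (horizontal axis) in CPM on log2 axes, 1 point per library, coloured by time. The 3 ringed libraries, those of lowest modal value, hold the 3 lowest values of both genes, and the other 9 have an r of 0.46.

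Against the summed markers of skeletal muscle, Oprd1 had an r of -0.76 (permutation p = 0.00365, adjusted p = 0.127 over 40 relations of the 10 genes with 4 marker sums) and a rho of -0.76 (permutation p = 0.00598, adjusted p = 0.114). Its r was -0.78 without the 2 farthest libraries, -0.85 as deviations from the time means and -0.53 within the 9 libraries. Negative values for Oprd1 were not limited to the muscle markers, and none passed the adjustment. The r of Oprd1 with the adipocyte markers was -0.72 (permutation p = 0.0084, adjusted p = 0.127), and -0.28 within the 9. With the macrophage markers it was -0.62 (permutation p = 0.0325, adjusted p = 0.217), and -0.32 within the 9. Against the adipocyte markers Faah had an r of 0.72 (permutation p = 0.00956, adjusted p = 0.127) and a rho of 0.80 (permutation p = 0.00276, adjusted p = 0.11). This r was 0.69 without the 2 farthest libraries and 0.58 within the 9. Against the muscle markers the r of Faah was 0.53 (permutation p = 0.0752, adjusted p = 0.301), and -0.14 within the 9. None of the 40 relations passed the adjustment, and 7 had an unadjusted permutation p of r under 0.05.

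Penk (chr4:4133531-4138819, minus strand), the enkephalin precursor, was the gene of the set that varied most between libraries at a well-measured level. It was 25.2, 41.8 and 55.7 CPM at ZT2, 19.0, 25.7 and 42.7 CPM at ZT8, 26.0, 37.7 and 23.5 CPM at ZT14, and 65.0, 28.7 and 30.6 CPM at ZT20. The 4 times overlapped, and the highest library, ZT20 replicate 1, stood beside 2 of about 30 CPM at its own time. Of the 9548 genes with a mean of at least 10 CPM, Penk ranked 107 by the SD of log2 CPM over the 12 libraries, while Cnr1 ranked 3426, Faah 5030, Oprl1 6685 and Mgll 9477. ZT14 differed from ZT2 by -0.49 ± 0.43 on the log2 scale (SE), with a 95% interval of -1.45 to 0.46. ZT20 differed from ZT8 by 0.51 ± 0.43, with an interval of -0.45 to 1.46. Over the 6 pairs of times the 95% intervals of Penk reached 2.77 times.

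The 3 genes whose log2 levels were most like those of Penk over the 12 libraries, out of 25808 compared, were Kcnk2 (r = 0.98), Srd5a2 (r = 0.97) and Hoxc11 (r = 0.97). They were picked as the most alike, so their r describes the choice and carries no p. Kcnk2 encodes the two-pore potassium channel TREK-1, Srd5a2 a steroid 5-alpha reductase, and Hoxc11 a homeobox factor of the posterior body. Hoxc11 was 2.01, 4.45 and 6.09 CPM at ZT2, 1.15, 1.77 and 5.41 CPM at ZT8, 2.37, 3.64 and 2.04 CPM at ZT14, and 8.47, 2.14 and 3.47 CPM at ZT20. At each of the 4 times the library highest in Penk was also the highest in Hoxc11. Chrna3, a nicotinic receptor subunit found in silent nociceptors and visceral afferents and named here after its values were seen, was 10.7, 17.3 and 24.6 CPM at ZT2, 9.41, 10.8 and 18.5 CPM at ZT8, 12.1, 17.8 and 11.6 CPM at ZT14, and 24.7, 11.6 and 15.3 CPM at ZT20.

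Hox genes of high paralogue number are active toward the tail end of the body axis in the embryo. Because Hoxc11 was among the 3 genes, all 32 tested Hox genes were set beside Penk as a description, chosen after these values were seen and therefore given with no p. Of the 6 genes of paralogue groups 10 and 11, 4 had an r above 0.7 with Penk: Hoxc11 (r = 0.97, rho = 0.97), Hoxd11 (r = 0.90, rho = 0.77), Hoxc10 (r = 0.84, rho = 0.83) and Hoxd10 (r = 0.75, rho = 0.79). The other 2 were Hoxa11 (r = 0.56) and Hoxa10 (r = 0.43). The share of all tested genes with an r above 0.7 with Penk is not given here, and 27 of 25808 had one above 0.9. Of the 26 genes of groups 1 to 9, Hoxd8 had an r of 0.88 and the other 25 lay between -0.43 and 0.64, with a median of 0.10. Hoxc9, from the same cluster as Hoxc11, had an r of 0.07 and Hoxc8 of 0.10. Without the 2 libraries farthest from its median, r was 0.95 for Hoxc11, 0.77 for Hoxd11, 0.68 for Hoxc10 and 0.67 for Hoxd10. As deviations from the mean of each time, r was 0.97 for Hoxc11 and for Hoxd11. Within the 9 libraries of higher modal value it was 0.97 and 0.86. Hoxa10 had an r of 0.80 without the 2 farthest libraries and of 0.39 within the 9. Within the 9, Hoxd8, Hoxd9 and Hoxa3 had an r of 0.82, 0.78 and 0.73, so the split between the groups was less sharp there. The labels give L1 to L6 for every library, and the part that unequal shares of these ganglia had in the Penk values was not tested.

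**Figure D3:**
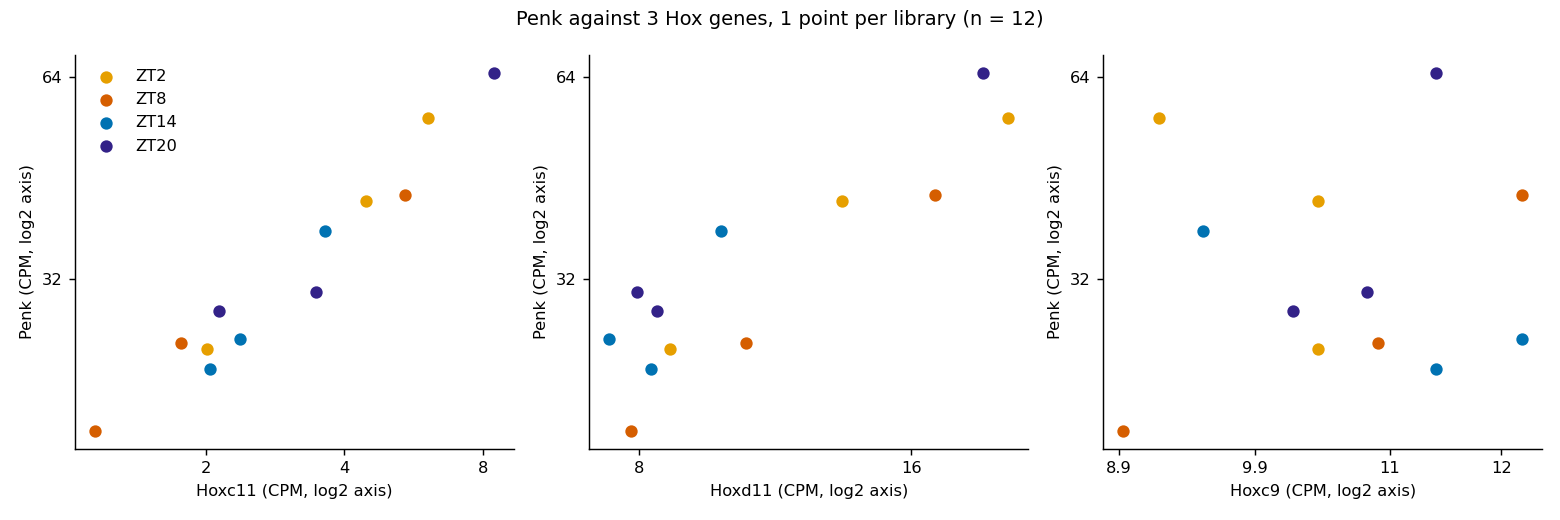
Penk (vertical axis) against Hoxc11, Hoxd11 and Hoxc9 (horizontal axes), in CPM on log2 axes, 1 point per library, coloured by time. Penk runs with Hoxc11 (r = 0.97) and Hoxd11 (r = 0.90) within and across times, while its r with Hoxc9 is 0.07.

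**Figure D4:**
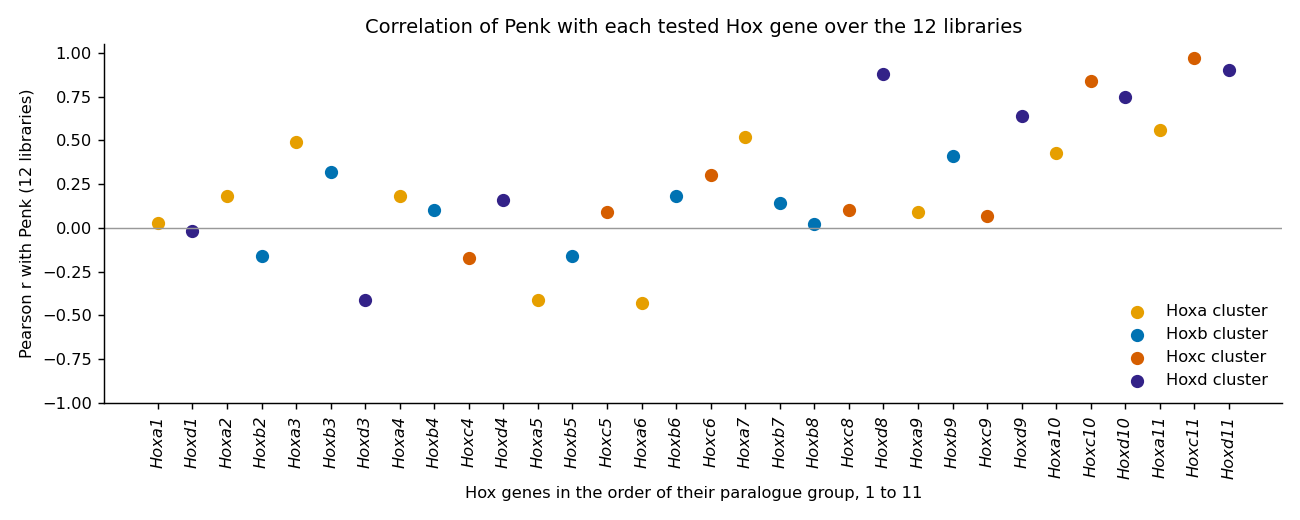
Pearson r of log2 CPM with Penk over the 12 libraries (vertical axis) for each of the 32 tested Hox genes, ordered by paralogue group and coloured by Hox cluster. The genes of groups 10 and 11 on the right have r between 0.43 and 0.97, and of the 26 genes to their left Hoxd8 alone is above 0.7.

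Pdyn (chr2:129686565-129699844, minus strand), the dynorphin precursor, was near the limit of detection. It was 0.26, 0.34 and 0.21 CPM at ZT2, 0.20, 0.19 and 0.31 CPM at ZT8, 0.42, 0.14 and 0.15 CPM at ZT14, and 0.28, 0.22 and 0.30 CPM at ZT20. Both the highest and the lowest library were of ZT14. Penk stood at 61.5 to 275 times Pdyn within a library. The 95% intervals of Pdyn between times of day reached 2.3 times, at the depth of about 4 to 11 reads.

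Of the cannabinoid receptors, Cnr1, which encodes the CB1 receptor of neurons, was at 70.8 to 239 times the level of Cnr2, which encodes the CB2 receptor of immune cells. Cnr1 (chr4:33924593-33948831, plus strand) was 17.0, 17.8 and 18.7 CPM at ZT2, 16.5, 16.2 and 16.0 CPM at ZT8, 14.6, 17.5 and 15.9 CPM at ZT14, and 15.8, 16.2 and 15.5 CPM at ZT20. The ZT2 libraries lay above all of ZT8 and of ZT20, and ZT14 replicate 2 reached into their range. Cnr1 was the only gene of the 10 whose ZT8 and ZT2 libraries did not overlap, beside 11.7% of all tested genes. ZT2 was above ZT20 by 0.18 ± 0.06 on the log2 scale (SE; 95% interval 0.03 to 0.32), a fold of 1.13, with an unadjusted edgeR p of 0.0194 and an adjusted p of 0.682. Blood markers differed between these 2 times: the erythroid sum was 1660 to 3990 CPM at ZT2 against 780 to 1230 CPM at ZT20. That of neutrophils and bone marrow was 59.9 to 138 CPM at ZT2 against 23.5 to 41.1 CPM at ZT20. At ZT8 and ZT14, where Cnr1 also averaged less than at ZT2, the erythroid sum was 2210 to 2400 and 3690 to 4040 CPM. The neutrophil and bone marrow sum was 63.5 to 83.7 CPM at ZT8 and 68.0 to 102 CPM at ZT14. The part of blood in the Cnr1 differences was not tested. ZT14 was below ZT2 by a log2 difference of -0.16 ± 0.06 (95% interval -0.30 to -0.01), with an unadjusted edgeR p of 0.0337 and an adjusted p of 0.923. ZT8 differed from ZT2 by -0.14 ± 0.06 (unadjusted edgeR p of 0.0567 and adjusted p of 0.878). Without ZT14 replicate 1, which is also a library of low modal value and of high muscle markers, the difference of ZT14 from ZT2 was -0.09 (unadjusted edgeR p of 0.138 and adjusted p of 1.0), and without ZT14 replicate 2 it was -0.23 (unadjusted edgeR p of 0.00383 and adjusted p of 0.71). Without the 3 libraries of lowest modal value it was -0.09 as well, while that of ZT2 from ZT20 was again 0.18. Cnr1 had an r of -0.65 with the pan-neuronal sum (permutation p = 0.0217, adjusted p = 0.217; rho = -0.67, permutation p = 0.02, adjusted p = 0.114). Its r was -0.27 without the 2 farthest libraries, -0.83 as deviations from the time means (permutation p = 0.0208, adjusted p = 0.191) and -0.48 within the 9 libraries.

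Cnr2 (chr4:135895394-135920207, plus strand) was 0.17, 0.25 and 0.08 CPM at ZT2, 0.11, 0.21 and 0.21 CPM at ZT8, 0.11, 0.16 and 0.09 CPM at ZT14, and 0.11, 0.07 and 0.15 CPM at ZT20. The times overlapped, and the 95% intervals between them reached 3.92 times. The 3 genes most like Cnr2 were Cd53 (r = 0.89), a membrane protein of leukocytes, Fam173a (r = 0.89) and Spn (r = 0.88), which encodes the leukocyte sialoglycoprotein CD43. As for Penk, these r describe a choice among 25808 genes. Summed markers of macrophages were 59.9 to 97.2 CPM in the libraries, and Cnr2 had an r of 0.46 with them (permutation p = 0.132, adjusted p = 0.378; rho = 0.48, permutation p = 0.121, adjusted p = 0.304; r = 0.26 without the 2 farthest libraries), which did not pass the adjustment.

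Mgll was the steadiest of the 10 genes, with a coefficient of variation of 1.94% over the 12 libraries, and Faah had one of 5.7%. Mgll (chr6:88724412-88828360, plus strand) was 80.6, 81.3 and 83.4 CPM at ZT2, 78.9, 79.1 and 81.1 CPM at ZT8, 81.7, 80.0 and 81.6 CPM at ZT14, and 79.7, 77.8 and 79.1 CPM at ZT20. All ZT2 and all ZT14 libraries lay above all of ZT20, by margins that the tests did not call. ZT2 was above ZT20 by 0.05 ± 0.03 on the log2 scale (unadjusted edgeR p of 0.111 and adjusted p of 0.741). The 95% intervals of Mgll for the 6 pairs of times stayed within 1.09 times in either direction. Libraries of ZT2 and ZT20 did not overlap for 2 of the 10 genes, Mgll and Cnr1, beside 14.7% of all tested genes. Faah (chr4:115967145-116017926, minus strand) was 17.9, 18.0 and 19.0 CPM at ZT2, 18.8, 17.5 and 19.6 CPM at ZT8, 19.8, 19.3 and 19.3 CPM at ZT14, and 21.4, 18.6 and 18.0 CPM at ZT20. All of its ZT14 libraries lay above those of ZT2, by a log2 difference of 0.09 ± 0.07 (95% interval -0.06 to 0.24; unadjusted edgeR p of 0.209 and adjusted p of 1.0). Libraries of ZT14 and ZT2 did not overlap for Faah and Oprk1, 2 of the 10 genes, beside 11.2% of all. For ZT20 against ZT8 and for ZT14 against ZT8 the libraries of all 10 genes overlapped, while 9.85% and 11.3% of all tested genes did not. Mgll was 3.72 to 4.53 times as high as Faah within a library.

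No gene of the set passed the threshold of 0.05 for the Benjamini-Hochberg adjusted p in any of the 9 edgeR tests. When any difference among the 4 times was tested, the count was 0 of 10, beside 0.0504% of the 25809 tested genes, and for a 24-h cosine it was 0 of 10 beside 0.0659%. For a 12-h alternation, in which ZT2 and ZT14 together are set against ZT8 with ZT20, it was 0 of 10 beside 0% of all. None of the 10 had an unadjusted edgeR p under 0.05 in these 3 tests, against 6.19%, 5.2% and 7.44% of all genes. Between pairs of times, Cnr1 alone had an unadjusted edgeR p under 0.05. That made 1 of the 10 genes for ZT14 against ZT2, where 5.19% of all genes had such a p, and 1 of 10 for ZT2 against ZT20, where 7.05% had. It was 0 of 10 for ZT20 against ZT8 beside 5.28%, for ZT8 against ZT2 beside 5.78%, for ZT14 against ZT8 beside 6.3% and for ZT20 against ZT14 beside 6.28%. The adjusted counts were 0 of 10 beside 0.0465% of all genes for ZT14 against ZT2, 0.0232% for ZT20 against ZT8, 0.0194% for ZT8 against ZT2, 0% for ZT14 against ZT8, 0.0426% for ZT20 against ZT14 and 0.00387% for ZT2 against ZT20. DESeq2 and limma called 0 of the 10 in each of the 9 tests as well. Their unadjusted p was under 0.05 for 1 gene each at ZT14 against ZT2, for 2 genes (DESeq2) and 1 gene (limma) at ZT2 against ZT20, and for 1 gene at the 12-h alternation with DESeq2.

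The fitted 24-h amplitude, the log2 distance from mean to peak, had a median of 0.09 over the 10 genes, beside 0.1 over all tested genes. It was 0.01 ± 0.02 for Mgll, 0.05 ± 0.03 for Oprl1 and for Faah, and 0.08 ± 0.03 for Cnr1 (SE), with the fitted Cnr1 peak at 2.9 h. It was 0.35 ± 0.21 for Penk and 0.39 ± 0.31 for Cnr2, the genes with the largest SD of log2 CPM over the libraries (0.53 and 0.59). The lowest 24-h p of the set was that of Cnr1 (unadjusted edgeR p of 0.0844 and adjusted p of 0.982). In the same fit Arntl had an amplitude of 0.86 ± 0.06. Over the 6 pairs of times the 95% intervals stayed within 1.15 times for Oprl1, 1.18 times for Faah and 1.25 times for Cnr1, and reached 1.72 times for Oprm1, 1.92 times for Oprd1 and 1.59 times for Oprk1.

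**Figure D5:**
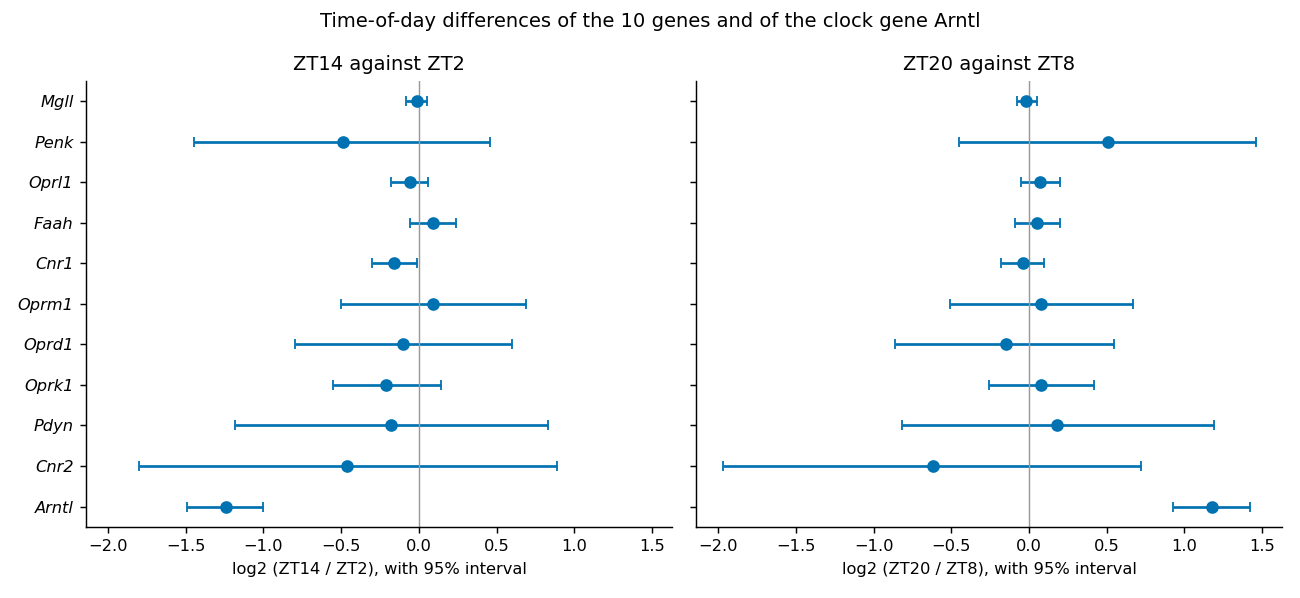
Log2 fold change with its 95% interval from the edgeR fit (horizontal axes) for ZT14 against ZT2 (left) and ZT20 against ZT8 (right), for the 10 genes in the order of their level and for Arntl (bottom row). The interval of Cnr1 for ZT14 against ZT2 (-0.30 to -0.01) is the only one of the set that leaves out 0, whereas Arntl lies at -1.24 and 1.18.

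The genes that make, process and carry the signals of these receptors gave no call either. Of 64 genes in 5 lists, 63 were tested, all but the potassium channel gene Kcnj5, and 0 passed any of the 9 edgeR tests. DESeq2 and limma called 0 of them too. In the test of any difference between times, 0 of the 63 had an unadjusted p under 0.05, against 6.19% of all genes, and in the 24-h test it was 0 as well, against 5.2%. In the 12-h alternation 3 of the 63 had such a p, against 7.44%. Between pairs of times it was 2 for ZT14 against ZT2, 1 for ZT20 against ZT8, 2 for ZT8 against ZT2, 3 for ZT14 against ZT8, 5 for ZT20 against ZT14 and 1 for ZT2 against ZT20, beside the shares of 5.19% to 7.05% of all genes given above. Among the 9 genes of other precursors and peptide processing, Cpe, the carboxypeptidase that trims neuropeptides, averaged 866 CPM and Pcsk1n, which encodes an inhibitor of prohormone convertase, 777 CPM. Pcsk1, the convertase itself, averaged 37.6 CPM. Scg5, a chaperone of the second convertase, ranged from 107 to 136 CPM over the libraries (edgeR any-time adjusted p = 0.884). The precursors of beta-endorphin and nociceptin were low, Pomc with 0.66 to 1.12 CPM and Pnoc with 0.342 to 0.884 CPM. These are beside 19.0 to 65.0 CPM of Penk.

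Of the 7 peptidase genes that break down opioid peptides, Npepps, a puromycin-sensitive aminopeptidase, was highest with 142 CPM, followed by Dpp3, a dipeptidyl peptidase, with 90.3 CPM. Ece1, the endothelin-converting enzyme, averaged 53.1 CPM and had the lowest any-time p of the list (edgeR adjusted p = 0.922). Among the 13 genes of endocannabinoid synthesis, breakdown and transport, Abhd12, a serine hydrolase, averaged 258 CPM and Gde1, a phosphodiesterase, 217 CPM, both above Mgll. Dagla and Daglb, the lipases that make 2-arachidonoylglycerol, averaged 18.4 and 11.3 CPM. Napepld, a phospholipase of anandamide synthesis, was 6.46 ± 0.03, 6.09 ± 0.45, 6.94 ± 0.30 and 6.44 ± 0.19 CPM at the 4 times in order (SD, n = 3 each; edgeR any-time adjusted p = 0.867). Ptgs2, the inducible cyclooxygenase, which also oxidizes endocannabinoids, was at 0.0348 to 0.23 CPM.

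Among the 8 other receptors and adaptors of these ligands, Trpv1, the capsaicin- and anandamide-gated channel of nociceptors, averaged 131 ± 16.3, 114 ± 6.89, 116 ± 9.91 and 119 ± 3.11 CPM over the 4 times in order (SD, n = 3 each; edgeR any-time adjusted p = 0.874). Ogfrl1, a relative of the opioid growth factor receptor, averaged 95.5 CPM, and Ackr3, an atypical chemokine receptor that takes up opioid peptides, 5.34 CPM (edgeR any-time adjusted p = 0.871). Of the 27 genes of Gi/o proteins, effectors and regulators, Gnao1, the Go alpha subunit, averaged 853 CPM and Gnb1, a beta subunit, 740 CPM. Cacna1b, the N-type calcium channel that these receptors inhibit, had the lowest any-time p of all 63 genes (edgeR adjusted p = 0.845), with 30.4 ± 1.31, 31.1 ± 2.84, 27.1 ± 0.71 and 30.2 ± 2.31 CPM over the 4 times in order (SD, n = 3 each). Gnb5, the beta subunit that pairs with RGS proteins, was 95.3 ± 1.5, 102 ± 2.35, 99.3 ± 0.94 and 101 ± 4.35 CPM in the same order (edgeR any-time adjusted p = 0.867). Over the 6 pairs of times the median log2 change of the 5 lists lay between -0.13 and 0.12, beside 0.00 over all genes. Both ends belong to the other receptors and adaptors, with -0.13 for ZT8 against ZT2 and 0.12 for ZT20 against ZT8.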

How the data were processed

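HISAT2 2.2.1, StringTie 2.1.5 and mouse build GRCm38.p6 are named by the submitters' processing notes. The authors deposited 1 table of estimated counts per gene (38942 rows). Its values are not whole numbers and appear to be on a coverage scale, and the step that made it is not recorded in the labels. Its 348 assembled loci (0.203% to 0.231% of a library) were left out. Symbols and coordinates came from GENCODE M21, and 38462 of 38594 IDs matched.

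Values were rounded and tested in R 4.3.3 with edgeR 4.0.16's quasi-likelihood test (filterByExpr, TMM, robust, 1 model of the 4 times over 12 libraries, no covariate). The tests were any difference, a 24-h cosine and sine pair, a 12-h alternation and 6 pairs of times, adjusted by Benjamini-Hochberg over 25809 genes. DESeq2 1.42.0, limma 3.58.1, other scalings and filters, approximate reads, a replicate block and left-out libraries were the alternatives. Counts were also simulated on the scale of the deposited values for ZT14 against ZT2 (24873 genes, 100 changed at each size). Of genes changed 1.5-fold 53% were recovered, of those changed 2-fold 85%, and 1 of 24673 unchanged genes was called. The changed genes all had a mean above 1 CPM, so these shares do not cover genes as low as Pdyn and Cnr2. They mix all levels above that, and no share was taken for genes as low as Oprm1, Oprd1 and Oprk1. More genes were changed than the 12 called in the data for ZT14 against ZT2. That eases the adjustment, so the shares may be too high for the data. Correlations used log2 CPM and two-sided tests with 100000 permutations; within times, 1296 permutations. Tables came from pandas 2.3.3 and plots from matplotlib 3.10.9 under Python 3.11.15.

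Named were all 10 genes, the 3 tested genes of highest r with a gene of the set, and, in each list with no call, the 2 of lowest any-time p and the 2 of highest level. Other genes (Hox genes, Chrna3, Pomc, Pnoc, Dagla, Daglb) beyond that rule were chosen after their values were seen. For Mgll, 1 gene of this rule is not reported here. The genes and lists were chosen with earlier results of these data known. The exact read depth is unknown, and counting error is only approximated. The kit's strand handling is not given in the sources used: exons of Oprm1 overlap Ipcef1 by 96 bases, those of Penk overlap A830012C17Rik by 233 and those of Mgll overlap Gm26588 by 167, each on the opposite strand, and such reads cannot be told apart.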

Additional observations from a re-analysis of the deposited data

How the results depend on the processing

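Under 20 alternatives that refit all 12 libraries or leave some out, and for pairs of times also with the 6 libraries of those times alone, 0 of the 10 genes passed any of the 9 tests, as in the results above; the lowest adjusted p was 0.424. With approximate reads Pdyn fell below the filter, so 9 genes were tested there. With each library left out in turn the counts were 0 to 0. The 63 genes of the lists likewise gave 0 calls under each alternative. The relations with marker sums gave 0 calls over the 12 libraries and 0 as deviations from the time means. The 24-h amplitude ranged from 0.01 to 0.02 for Mgll, 0.05 to 0.12 for Cnr1, 0.25 to 0.51 for Penk and 0.09 to 0.47 for Pdyn over the alternatives. The Cnr1 difference ranged from -0.23 to -0.09 for ZT14 against ZT2 (highest unadjusted p 0.205) and from 0.14 to 0.22 for ZT2 against ZT20 (highest 0.0788).

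No clear pairing by replicate number was seen. Deviations from the time means of same-numbered libraries correlated across genes between -0.173 and 0.276 (18 pairs, 5 over 0.1). The median was -0.000531, against 0.0181 for 36 pairs of different number. Of 12 libraries, 3 correlated best with their own number, and this check does not exclude a pairing. With the replicate block the count of genes past the threshold was 0 in each of the 9 tests. Leaving out the 3 libraries of lowest modal value was chosen after seeing the data. Multiplied by the median transcript length, which gives roughly reads, the order of the levels became Cnr1, Mgll, Oprl1, Faah, Penk, Oprd1, Oprk1, Oprm1, Cnr2 and Pdyn. The values of Pdyn and Cnr2 rest on few reads, which limits what could be detected for them.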

Other observations

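The likeness of the other genes of the set over the 12 libraries was measured in the same way as for Penk, with the same limit that each r was picked as one of the highest of 25808. Oprd1 had 231 genes with an r above 0.9, led by Rcan3, Larp1 and Pigk (r = 0.97 each). Rcan3, a regulator of calcineurin, ranged from 38.8 to 47.0 CPM, Larp1, an RNA-binding protein, from 99.1 to 120 CPM, and Pigk, a subunit of the enzyme that attaches lipid anchors to proteins, from 50.8 to 59.1 CPM. Oprm1 had 1 such gene, and Calhm4 (r = 0.90), Slc2a3, a glucose transporter (r = 0.90), and Ksr1, a scaffold of the MAP kinase pathway (r = 0.88), were the most like it. Penk had 27 genes above 0.9 and Pdyn 4, while Oprk1, Oprl1, Cnr1, Cnr2, Faah and Mgll had 0. The most like Pdyn were Numbl (r = 0.93), Tomm40 (r = 0.92) and Catip (r = 0.92).

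Cnr1 was most like Ahr, the aryl hydrocarbon receptor (r = 0.89), Bmpr1a, a receptor for bone morphogenetic proteins (r = 0.87), and Zbtb1 (r = 0.87). Oprl1 was most like Mgl2, a lectin of macrophages and dendritic cells (r = 0.88), Dok2 (r = 0.85) and Dusp22 (r = 0.85). Faah was most like Adam12 (r = 0.89), Slc41a3 (r = 0.89) and Tctex1d1 (r = 0.88). Genes most like Mgll included Slc35a1 (r = 0.89) and the pseudogene Gm7041 (r = 0.87), and Oprk1 was most like the pseudogene Gm6650 (r = 0.88), Gatd1 (r = 0.88) and the long noncoding RNA AC125381.1 (r = 0.84). Gm7041, Gm6650 and AC125381.1 were listed at 0 in at least 1 library.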
